A study of Mus musculus with 10 samples.

Results

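The BCL2 family decides at the mitochondrion whether a cell enters apoptosis, and 10 of its genes were followed here through mouse mammary tumors with and without voluntary running. The genes were Bcl2, Bcl2l1, Mcl1, Bax, Bak1, Bcl2l11, Bmf, Bid, Bad and Pmaip1, found by symbol among the 21959 genes of the expression table. Bmf was included because its difference between the groups had one of the smallest p-values in these same tumors, so that its difference is described below without a test. The other 9 span the classes of the family.

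The 10 tumors arose from the line 4T1, which derives from a mammary carcinoma of the mouse and models breast cancer of the triple-negative type. The cells had been injected under the abdominal skin of female BALB/c mice aged 5 to 6 weeks. The exercise group (E, 5 tumors) had free access to running for 21 days and the non-exercise group (NE, 5 tumors) was kept under normal husbandry. The same cell line, strain, site and time applied to both groups, and no drug or genetic change separated them. Each tumor came from 1 mouse and gave 1 mRNA library, in which carcinoma cells and the cells of the host were sequenced together. Means are followed by the SD (n = 5 per group). Levels are given as FPKM, a read density per gene length and library size, which allows genes to be compared with each other. In such bulk samples, fewer cells of a type and less RNA per cell cannot be told apart.

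The proteins of the family fall into classes by role. The guardians (Bcl2, Bcl2l1 and Mcl1) hold the mitochondrial outer membrane closed, and the effectors (Bax and Bak1) form the pores that let cytochrome c out. The BH3-only proteins (Bcl2l11, Bmf, Bid, Bad and Pmaip1) report stress by binding the guardians or the effectors, and their amounts and modifications set the balance. Several of these proteins are controlled mainly by cleavage, phosphorylation or turnover, which RNA levels do not show.

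The promoter windows of Bmf and Bcl2l11 are printed first because these members were higher in E in the most pairings of an E with an NE tumor (24 and 23 of 25). The windows run from 250 bases before to 50 bases after an annotated start and come from RefSeq (GRCm38.p6). Of the 10 members, 9 were matched, with 15 windows in all. Each window is written 5′ to 3′ on the strand of the gene. Capitals mark matches of the motifs searched on both strands.
Bmf, lowest window, chr2:118544538-118544837 (minus strand): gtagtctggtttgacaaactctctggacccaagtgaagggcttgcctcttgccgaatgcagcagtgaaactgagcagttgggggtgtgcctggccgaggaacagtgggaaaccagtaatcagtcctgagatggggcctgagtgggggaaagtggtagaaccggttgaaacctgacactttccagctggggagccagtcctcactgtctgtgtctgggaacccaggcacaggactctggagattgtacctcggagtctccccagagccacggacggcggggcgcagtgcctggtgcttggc
Bmf, middle window, chr2:118547550-118547849 (minus strand): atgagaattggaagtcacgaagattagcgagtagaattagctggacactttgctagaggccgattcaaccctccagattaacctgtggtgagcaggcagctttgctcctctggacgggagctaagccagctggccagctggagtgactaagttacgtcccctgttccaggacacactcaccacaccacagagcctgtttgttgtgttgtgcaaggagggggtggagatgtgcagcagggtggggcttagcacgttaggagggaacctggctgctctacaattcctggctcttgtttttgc
Bmf, highest window, chr2:118549637-118549936 (minus strand): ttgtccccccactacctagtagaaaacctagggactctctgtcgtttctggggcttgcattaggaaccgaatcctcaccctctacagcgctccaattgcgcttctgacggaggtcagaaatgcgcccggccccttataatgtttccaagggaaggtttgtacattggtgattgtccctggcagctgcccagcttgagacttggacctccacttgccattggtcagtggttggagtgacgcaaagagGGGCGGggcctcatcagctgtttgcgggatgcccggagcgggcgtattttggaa
Bcl2l11, lower window, chr2:128125788-128126087 (plus strand): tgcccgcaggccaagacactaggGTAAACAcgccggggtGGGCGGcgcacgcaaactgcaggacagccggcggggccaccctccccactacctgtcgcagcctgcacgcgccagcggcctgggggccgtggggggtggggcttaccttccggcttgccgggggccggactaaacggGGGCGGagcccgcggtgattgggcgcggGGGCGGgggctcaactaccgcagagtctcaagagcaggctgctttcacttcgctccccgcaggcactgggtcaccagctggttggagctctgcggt
Bcl2l11, upper window, chr2:128127325-128127624 (plus strand): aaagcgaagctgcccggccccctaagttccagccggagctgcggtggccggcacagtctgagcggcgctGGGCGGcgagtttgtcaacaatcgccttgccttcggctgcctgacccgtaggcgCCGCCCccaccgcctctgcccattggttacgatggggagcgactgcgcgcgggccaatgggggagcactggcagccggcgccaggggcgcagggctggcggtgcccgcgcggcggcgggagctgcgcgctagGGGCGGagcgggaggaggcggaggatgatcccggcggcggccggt

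The motifs searched were a FOXO site (TGTTTAC), an E-box (CACGTG), an Sp1 site (GGGCGG) and an AP-1 site (TGANTCA). FOXO factors are known activators of Bcl2l11 under growth factor withdrawal. The FOXO letters occurred in 1 of the 15 windows, at bases 24 to 30 of the lower Bcl2l11 window, and in 3.65% of all 32851 promoter windows of the same length. The Sp1 letters occurred 3 times in each of the Bcl2l11 windows and at 1 place in Bmf, bases 247 to 252 of its highest window. The other Bmf windows held none of the 4 motifs. Over the members, 8 of 15 windows (7 of 9 genes) held the Sp1 letters, against 35.7% of all windows. The E-box stood in 1 member window (Bax), against 7.15% of all windows, and the AP-1 letters in 0 of 15, against 7.81%. These are matches of letters and not measurements of binding.

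The libraries held between 15045613 and 20646763 counted reads in E and between 18706032 and 23092251 in NE, and the E libraries were the shallower ones (exact two-sided permutation test, p = 0.0317). In the shallowest library, a count of 0 allows a level of up to 0.199 CPM (reads scaled to a library's total), which is what 3 reads amount to. The label gives mammary cancer tissue, and the genes that define simple epithelium were low, with a median of 0.0615 FPKM for Krt8 (highest tumor 0.618), 0.209 for Krt18 (highest 1.46) and 0.464 for Epcam (highest 1.41). Krt19 (7.76) and Cdh1 (2.01) had higher medians. The basal keratins were at 0 in several tumors (Krt5 in 8, Krt14 in 4) but reached 12.96 FPKM for Krt5 and 30.3 FPKM for Krt14 in an NE tumor. NE5 had the highest sum of the epithelial markers, which include both (131 CPM, nearest NE tumor 31.8). It also had the highest sum of the differentiated keratinocyte markers (58.7 CPM, E tumors at most 2.16). The library of NE4 stood apart, with 27988 CPM over the 12 skeletal muscle markers, while the other tumors had 9.72 to 3923 CPM. Fold changes without NE4 are given for the members and for the other named genes that it moved most.

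Among all 13517 genes tested between E and NE, 0 (0%) reached an FDR of at most 0.05 with edgeR's quasi-likelihood test and 657 (4.86%) had an unadjusted p of at most 0.05. DESeq2 called 3 genes, none of them a member, and limma-voom called 0. All 10 members passed the filter on low counts, and 0 of the 10 reached the FDR threshold. At an unadjusted p of at most 0.05 stood Bmf, which was chosen by that value, and 1 of the other 9, Bcl2l11. The groups overlapped in CPM for all 10 members, while 98 genes (0.725%) had groups that did not. The members' median log2 fold change (E minus NE) was 0.03 with Bmf and 0.02 without it, against -0.01 over all genes tested.

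**Figure D1:**
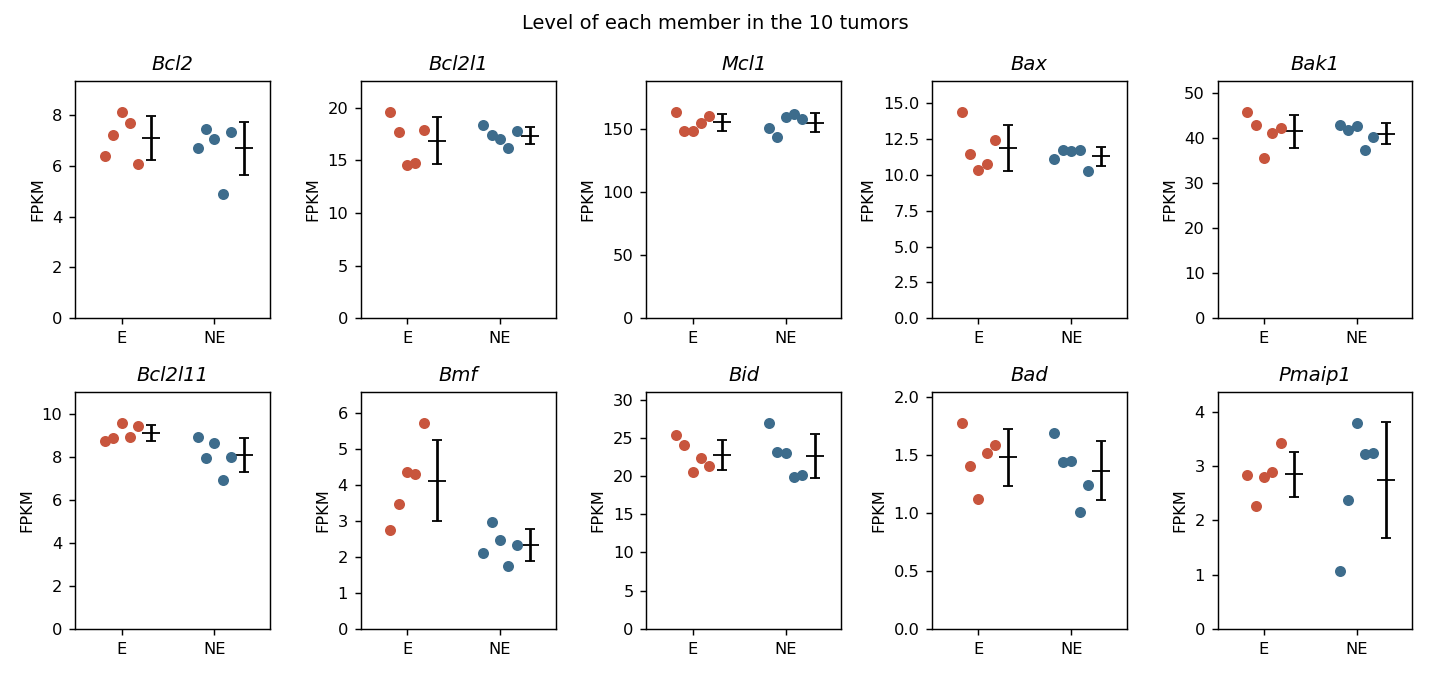
FPKM of the 10 members in each tumor (1 panel per gene with its own axis from 0; points are tumors, in E and NE, and the bar is the mean with its SD). Bmf is the member whose E and NE points are farthest apart (4.13 against 2.33 on average), and the groups overlap in every panel, Bmf included.

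Mcl1, the short-lived guardian that binds Bak1 and most BH3-only proteins, was the highest of the 10 genes in every tumor. It stood at 164, 149, 149, 155 and 161 FPKM in E1 to E5 and at 151, 144, 160.1, 162 and 159 FPKM in NE1 to NE5. The levels were nearly the same in all tumors, and the highest was only 1.14 times the lowest. The mean was 155 ± 6.75 FPKM in E and 155 ± 7.51 FPKM in NE (± SD of 5 tumors each). E minus NE was -0.03 on the log2 scale with a standard error of 0.058 (95% interval -0.16 to 0.10, edgeR FDR 0.947), and it turned to 0.003 both without TMM and without NE4. Mcl1 also made up most of the guardian RNA, with 86.6% on average of the summed FPKM of Mcl1, Bcl2l1 and Bcl2 (85.3% to 88.5% over the 10 tumors).

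Bcl2, the founding guardian, was far lower than Mcl1. It measured 6.37, 7.22, 8.11, 7.69 and 6.05 FPKM in the E tumors and 6.69, 7.44, 7.06, 4.87 and 7.34 FPKM in the NE tumors. The groups overlapped, and NE4 was the lowest of all. For Bcl2 the log2 fold change was 0.06 with a standard error of 0.12 (95% interval -0.21 to 0.33, edgeR FDR 0.950), and without NE4 it was -0.02. Bcl2l1, which encodes BCL-XL, measured 19.6, 17.7, 14.5, 14.7 and 17.9 FPKM in E and 18.4, 17.5, 17.0, 16.1 and 17.8 FPKM in NE. All 5 NE tumors lay inside the range of the E tumors. Its log2 fold change was -0.07 with a standard error of 0.079 (95% interval -0.25 to 0.10, edgeR FDR 0.910), and it was -0.08 without NE4.

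The summed FPKM of the 3 guardians was 179 ± 7.58 in E and 179 ± 6.64 in NE (± SD of 5 tumors each). Bcl2a1d, another guardian known from leukocytes, had 19.2 ± 2.40 FPKM in E and 22.4 ± 6.29 FPKM in NE. Its value is uncertain because 79.5% of the 50-base stretches of its transcripts occur in those of other genes, as do 69.0% for Bcl2a1a and 79.2% for Bcl2a1b. Bcl2l2, the guardian BCL-W, stood at 8.87 ± 0.476 FPKM in E and 8.945 ± 0.467 FPKM in NE. In the reference annotation, Gm20521 overlaps it on the same strand, and 12.1% of the 50-base stretches of Bcl2l2 are shared.

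Both pore-forming effectors were measured in all tumors. Bak1, which sits in the outer membrane permanently, measured 45.8, 42.8, 35.6, 41.2 and 42.2 FPKM in E and 42.8, 41.9, 42.7, 37.3 and 40.3 FPKM in NE. The NE values all lay within the E range, which E1 and E3 bounded. For Bak1 the log2 fold change was -0.01 with a standard error of 0.059 (95% interval -0.14 to 0.12, edgeR FDR 0.979), and it was 0.018 without TMM and -0.03 without NE4. Bax, which moves from the cytosol to the membrane on activation, measured 14.4, 11.4, 10.3, 10.8 and 12.4 FPKM in E and 11.1, 11.7, 11.6, 11.8 and 10.2 FPKM in NE. E1 stood above the other tumors, and without it the log2 fold change went from 0.04 (standard error 0.10, 95% interval -0.18 to 0.26, edgeR FDR 0.958) to -0.03, while without NE4 it was 0.07. In the reference annotation, a read-through transcript, Gm45808, overlaps Bax on the same strand, and 8.51% of the 50-base stretches of Bax are shared.

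Bak1 exceeded Bax in all 10 tumors, by 3.17 to 3.94 times. The ratio of Bax to Bcl2, often quoted as a measure of readiness for apoptosis, was 1.71 ± 0.426 in E and 1.74 ± 0.393 in NE (± SD of 5 tumors each). The highest ratio was that of NE4 (2.41), the tumor with the lowest Bcl2, and the other NE tumors had 1.39 to 1.65. Bok, a relative of the effectors, measured 6.01 ± 0.640 FPKM in E and 5.37 ± 0.973 FPKM in NE, with a log2 fold change of 0.13 and a standard error of 0.14.

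Bmf, a BH3-only protein that is tied to the cytoskeleton and freed on loss of attachment, showed the widest separation of the 10. It measured 2.76, 3.49, 4.36, 4.31 and 5.74 FPKM in E1 to E5 and 2.12, 2.98, 2.48, 1.75 and 2.33 FPKM in NE1 to NE5. Of the 25 pairings of an E with an NE tumor, 24 had the higher level in E, and the exception was E1 against NE2. The mean was 4.13 ± 1.12 FPKM in E and 2.33 ± 0.455 FPKM in NE (± SD of 5 tumors each), which is 1.77 times as much. The log2 fold change was 0.79 with a standard error of 0.20. As Bmf was chosen by this difference, the values describe it and no test is attached.

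The read counts behind Bmf (ENSMUSG00000040093) were 299, 342, 472, 420 and 454 in E and 257, 293, 296, 211 and 262 in NE. These raw counts did not overlap, which restates the difference by which Bmf was chosen. In CPM the groups overlapped, with E1 at 14.3 and NE2 at 15.8. Counting error was small next to the spread between tumors. The coefficient of variation was 27.0% in E and 19.5% in NE, where counting alone gives 5.02% and 6.16%. In the reference annotation (GRCm38), Bmf has 8 transcripts over 20931 bp with no overlapping gene, and 0 of its 5336 stretches of 50 bases occur in another gene. The expression table, whose build is not named, places it on the minus strand at chr2:118359238-118380168.

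The levels of Bmf were set beside the depth of the libraries. The highest level, 5.74 FPKM, belonged to E5 with 15045613 counted reads, and the lowest levels, 1.75 FPKM in NE4 and 2.12 FPKM in NE1, belonged to libraries of 22947178 and 23092251 reads. E and NE libraries of similar depth differed by unequal amounts. E4 (4.31 FPKM, 18548988 reads) and E2 (3.49 FPKM, 18645694 reads) stood above NE2 (2.98 FPKM, 18706032 reads). E1 (2.76 FPKM, 20646763 reads) and E3 (4.36 FPKM, 20611941 reads) stood above NE5 (2.33 FPKM, 21388798 reads), while E1 stood below NE2. As Bmf was chosen by its difference between the groups, these pairings only describe it. With the total count of each library as a covariate (log2), the log2 fold change was 0.44 with a standard error of 0.18. Without E5 it was 0.65 (standard error 0.18), and without NE4 it was 0.72 (standard error 0.20). Depth and group went together in these libraries, and the part of depth in the level of Bmf was not tested further.

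**Figure D2:**
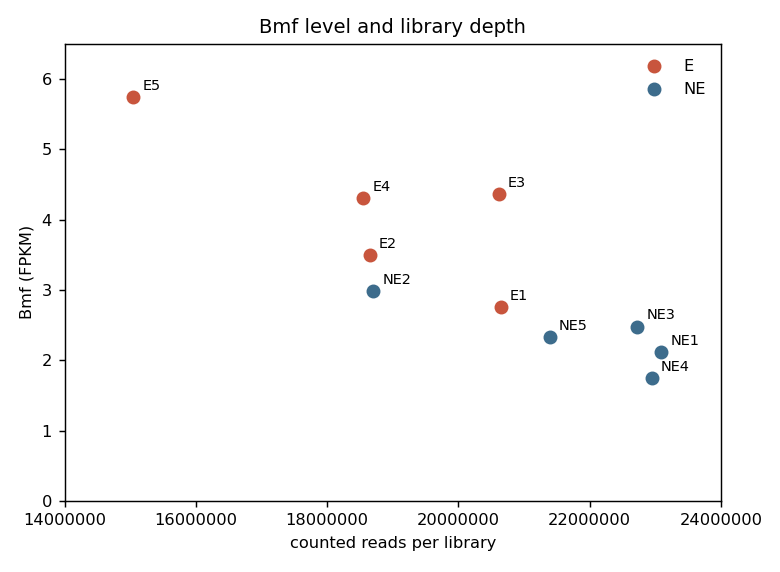
Bmf level in FPKM (vertical axis) against the counted reads of the library (horizontal axis), with 1 labelled point per tumor and the groups in different colors. The E tumors lie to the left and above, from E5 (5.74 FPKM) down to E1 (2.76 FPKM), and 4 of the 5 NE tumors lie to the right of all E tumors.

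The markers of other cell types were set beside Bmf. The summed CPM of the neutrophil markers (8 of 12 listed genes tested) was 114.5 to 607 in E and 89.7 to 154 in NE. It was highest in E5 (607) and E3 (393), which were also the tumors with the most Bmf. E4 had nearly as much Bmf as E3 (4.31 against 4.36 FPKM) but the lowest neutrophil sum of the E tumors (114.5). Of these 8 markers, 3 were higher in E at an unadjusted p of at most 0.05, where 2.57% of all genes were, and 0 reached the FDR threshold. The defining neutrophil gene Ly6g was low in all tumors (0.0572 to 0.282 FPKM in E and 0.0568 to 0.374 FPKM in NE), and Ngp was at 0 in 4 tumors, Stfa2l1 in 4 and Camp in 3. The 9 fibroblast markers summed to 2323 to 16132 CPM in E, with E5 highest, and to 996 to 5132 CPM in NE. The part of these cells in the Bmf values was not tested.

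For the macrophage, T cell, NK cell, B cell and endothelial markers the ranges of the groups overlapped widely. At an unadjusted p of at most 0.05, 1 of 12 macrophage markers was higher in E, where 2.57% of all genes were. In the same way, 1 of 6 NK cell markers was lower in E, where 2.29% of all genes were. The T cell, B cell and endothelial lists held 0 such genes, and 0 markers of these lists reached the FDR threshold. The macrophage markers summed to 2671 to 4396 CPM in E and 1291 to 4576 CPM in NE, and the T cell markers (7 of 8 genes in the table) to 92.3 to 138 CPM and 58.6 to 154 CPM. The NK cell markers had 94.0 to 214 CPM in E and 123 to 203 CPM in NE, and the B cell markers (5 of 6 in the table) 7.32 to 11.3 CPM and 7.81 to 12.4 CPM. The endothelial markers had 123 to 219 CPM in E and 113 to 201 CPM in NE. Epithelial markers were at 20.4 to 29.5 CPM in E and 26.03 to 131 CPM in NE, and 2 of the 4 tested were lower in E at an unadjusted p of at most 0.05, where 2.29% of all genes were. With the muscle markers as a covariate the log2 fold change of Bmf was 0.80, and it was 0.79 without that covariate. As Bmf was chosen by its difference between the groups, both values only describe it. The part of muscle tissue in the Bmf values was not tested.

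Bcl2l11 encodes BIM, the BH3-only protein that binds all guardians and is needed for the death of many blood cells. It measured 8.73, 8.88, 9.61, 8.95 and 9.45 FPKM in E and 8.95, 7.97, 8.68, 6.94 and 8.02 FPKM in NE. E was higher in 23 of the 25 pairings, NE1 overlapped the E range and NE4 was the lowest. The mean was 9.13 ± 0.381 FPKM in E and 8.11 ± 0.780 FPKM in NE (± SD of 5 tumors each).

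The log2 fold change of Bcl2l11 was 0.14 with a standard error of 0.061, and it failed the correction for all genes (edgeR, unadjusted p = 0.0432, FDR 0.897). Of all genes tested, 34.8% had an absolute log2 fold change at least as large. Leaving out single tumors gave log2 fold changes between 0.10 (without NE4) and 0.17, and 4 of these 10 fits kept an unadjusted p of at most 0.05. With the total count as a covariate it was 0.15 with a standard error of 0.083. Bcl2l11 (ENSMUSG00000027381) had 1142 to 1659 reads per tumor, and 11 of the 8162 stretches of 50 bases of its transcripts are shared with other genes.

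Bid is cleaved by caspase-8 and links death receptors to the mitochondrion, and it was the highest of the 5 BH3-only genes. It measured 25.3, 24.1, 20.5, 22.4 and 21.4 FPKM in E and 27.0, 23.1, 23.0, 19.8 and 20.1 FPKM in NE. The E values lay inside the NE range. For Bid the log2 fold change was -0.02 with a standard error of 0.081 (95% interval -0.20 to 0.16, edgeR FDR 0.975), and it was 0.008 without TMM and -0.05 without NE4.

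Bad, which is held inactive by phosphorylation downstream of growth factors, was the lowest of the 10 genes. It measured 1.78, 1.40, 1.12, 1.52 and 1.58 FPKM in E and 1.69, 1.44, 1.45, 1.01 and 1.24 FPKM in NE. Only 59 to 100 reads per tumor lay behind these values, so that counting alone gives a coefficient of variation of 11.9% in E and 11.5% in NE, against 16.5% and 18.8% measured. For Bad the log2 fold change was 0.09 with a standard error of 0.17 (95% interval -0.30 to 0.47, edgeR FDR 0.947), and without NE4 it was 0.007.

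Pmaip1 encodes NOXA, a p53 target and a selective ligand of MCL1, and it varied most within a group. It measured 2.84, 2.26, 2.81, 2.90 and 3.43 FPKM in E and 1.06, 2.37, 3.80, 3.22 and 3.23 FPKM in NE. NE1 stood below all other tumors, and the highest tumor had 3.58 times its level. The coefficient of variation was 14.6% in E and 39.0% in NE, where counting alone gives 8.33% and 7.83%. The log2 fold change was 0.02 with a standard error of 0.30 (95% interval -0.64 to 0.67, edgeR FDR 0.996), and it was -0.19 without NE1 and 0.11 without NE4.

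**Figure D3:**
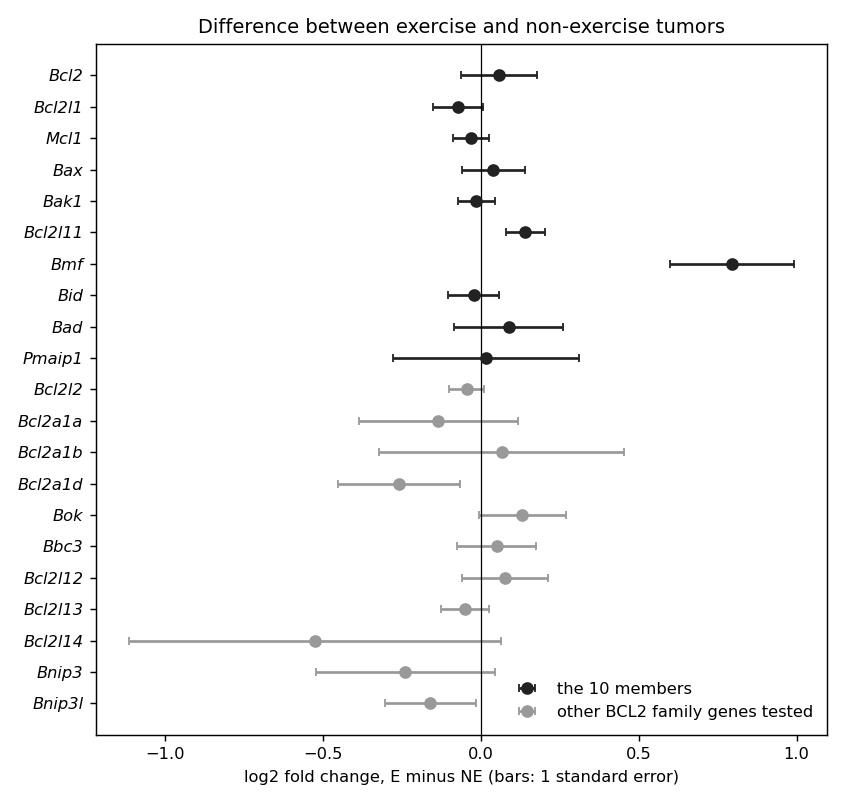
Log2 fold change (E minus NE) with 1 standard error as the bar for the 10 members and the other BCL2 family genes tested. Bmf lies at 0.79, Bcl2l11 at 0.14, and the other 8 members between -0.07 and 0.09.

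The 5 BH3-only genes were also added up. Their summed FPKM was 40.3 ± 1.28 in E (38.4 to 41.6) and 37.2 ± 3.28 in NE (32.8 to 40.8), and E was higher in 21 of the 25 pairings. Bid gave the largest share, with 56.4 ± 4.17% in E and 60.7 ± 3.33% in NE. Bmf gave 10.3 ± 2.72% in E and 6.27 ± 1.09% in NE, a share that rests on the same difference by which it was chosen. The sum of the effectors was 53.4 ± 5.16 FPKM in E and 52.3 ± 2.33 FPKM in NE. The ratio of the 5 BH3-only members to the 3 member guardians was 0.225 ± 0.00436 in E and 0.208 ± 0.0225 in NE. Relatives outside the 10 members are not in this ratio. These sums contain Bmf, and no test was run on them.

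**Figure D4:**
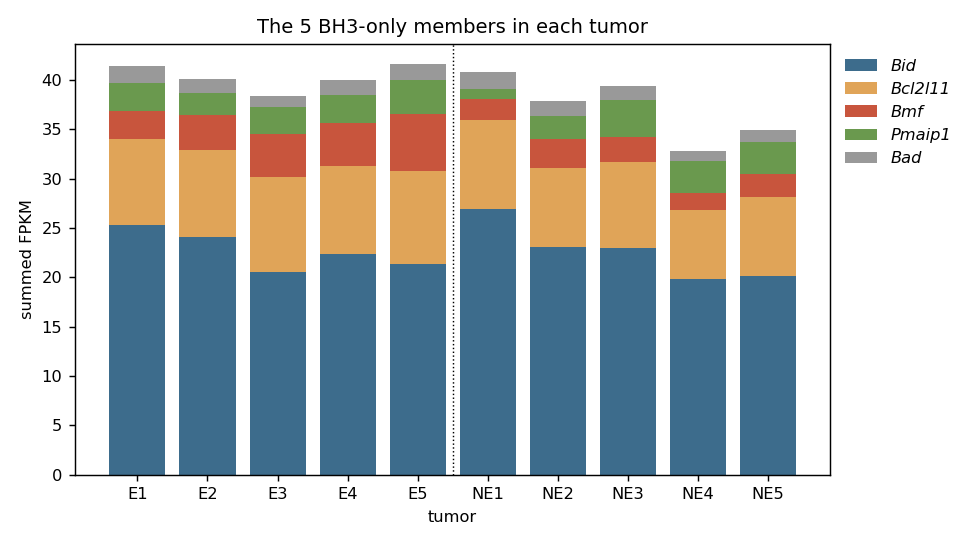
Stacked bars of the FPKM of the 5 BH3-only genes in each of the 10 tumors, E left and NE right of the dotted line. Bid fills the largest part of each bar, and the totals are 38.4 to 41.6 in E and 32.8 to 40.8 in NE.

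By mean FPKM over the 10 tumors, the order was Mcl1 (155), Bak1 (41.25), Bid (22.7), Bcl2l1 (17.1), Bax (11.6), Bcl2l11 (8.62), Bcl2 (6.88), Bmf (3.23), Pmaip1 (2.79) and Bad (1.42). The upper gene exceeded its neighbour in 10 of 10 tumors for every pair but those at the bottom. Bmf exceeded Pmaip1 in 6 of 10 tumors and Pmaip1 exceeded Bad in 9 of 10, so that the order of Bmf and Pmaip1 is within the spread. The order of the levels of Bcl2l11 and Bcl2 held within every tumor although their ranges overlapped across tumors.

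Each tumor was also compared with the mean of the 10 for each gene. NE4 was the lowest of all tumors for Bcl2, Bcl2l11, Bmf, Bid and Bad in FPKM. Its 12 muscle markers took 2.66% of the reads. Also in FPKM, NE1 was the lowest for Pmaip1 and the highest for Bid, and E1 was the highest tumor for Mcl1, Bcl2l1, Bax, Bak1 and Bad. In CPM with the TMM factors, NE4 was instead the highest for Mcl1 and NE5 the lowest for Bid.

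**Figure D5:**
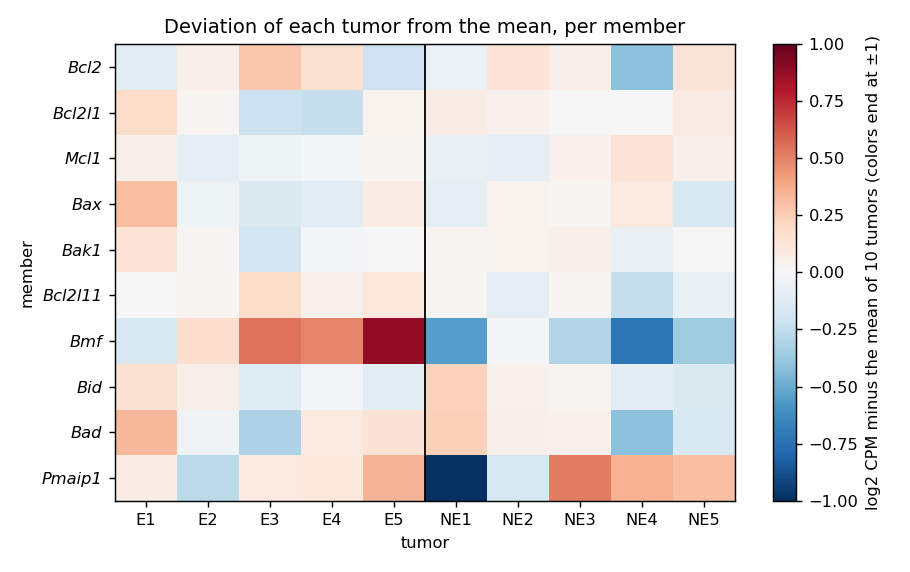
Heat map of log2 CPM minus the mean of the 10 tumors, for each member (rows) and tumor (columns), with colors that end at ±1. Bmf is above its mean in E2 to E5 and below it in E1 and all NE tumors, and Pmaip1 in NE1 (-1.35) lies beyond the color scale.

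For each member, the gene with the most similar pattern over the 10 tumors was sought by Pearson's r of log2(CPM + 1) among 13516 other genes, as a description. All libraries share the differences in depth and in tissue named above. Bmf was most like Rapgef2 (r = 0.978), Bcl2 most like Hace1 (0.987), Bcl2l1 most like Nfkbib (0.911), Mcl1 most like Ephx3 (0.935) and Bax most like Tnfaip2 (0.978). Bak1 went with Trmt44 (0.926), Bcl2l11 with Chst2 (0.943), Bid with Maea (0.9595), Bad with Spout1 (0.935) and Pmaip1 with Sec11c (0.979). Without NE4, 3 of the 10 members (Bax, Bmf and Pmaip1) kept the same most similar gene.

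The rest of the mitochondrial pathway was read from 6 lists of 75 genes, of which 72 were tested. At an unadjusted p of at most 0.05 stood 0 genes higher in E and 1 gene lower in E, where 2.57% and 2.29% of all genes did, and 0 genes reached the FDR threshold. The log2 fold changes were above 0 for 30 and below 0 for 42 of the 72 genes. Of all 13517 genes tested, 6221 were above and 7296 below 0. The median of the 72 genes was -0.03 against -0.01 over all genes.

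Among the other BCL2 family genes, 0 of the 11 tested passed in either direction and their median was -0.05. Bbc3, which encodes the p53 target PUMA, measured 4.18 ± 0.590 FPKM in E and 3.95 ± 0.435 FPKM in NE, with a log2 fold change of 0.05 and a standard error of 0.12 (edgeR FDR 0.958), or 0.01 without NE4. Bnip3l, a mitophagy receptor, was the most abundant of the list at 48.0 ± 8.88 FPKM in E and 52.7 ± 8.56 FPKM in NE. Bcl2l14 had the widest difference, a log2 fold change of -0.52 with a standard error of 0.59, or -0.24 without NE4. Bik had 5 to 12 reads per tumor and Hrk 0 to 2, too few for the test.

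Downstream of the pores, 0 of the 13 apoptosome and caspase genes passed, with a median of 0.002. Apaf1, the scaffold of the apoptosome, measured 14.2 ± 0.517 FPKM in E and 13.1 ± 1.74 FPKM in NE (log2 fold change 0.09, or 0.03 without NE4), and Casp9, its initiator caspase, 4.06 ± 0.676 and 3.82 ± 0.258 FPKM. Cycs, which encodes cytochrome c, had 40.8 ± 4.27 FPKM in E and 48.7 ± 10.5 FPKM in NE, with a log2 fold change of -0.29 and a standard error of 0.15. Its highest level was 64.9 FPKM in NE4, without which the log2 fold change was -0.15. Of the 7 inhibitors of apoptosis and their antagonists, 0 passed, with a median of -0.01. Xiap, the direct caspase inhibitor, had 14.8 ± 2.03 FPKM in E and 14.8 ± 1.64 FPKM in NE, and Birc5, which also serves in mitosis, was the highest at 24.7 ± 3.27 FPKM in E and 24.3 ± 1.47 FPKM in NE. Diablo, the antagonist released from mitochondria, had a log2 fold change of 0.26 with a standard error of 0.23.

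Of the 8 partners of the mitochondrial outer membrane, 0 passed and the median was -0.11. Below 0 stood 7 of 8 log2 fold changes, where 7296 of all 13517 genes tested did. Without NE4, the library rich in muscle markers, the median was -0.06 and 7 of 8 were below 0. Vdac1, the main anion channel, had 174 ± 11.6 FPKM in E and 194 ± 35.5 FPKM in NE, with a log2 fold change of -0.19 and a standard error of 0.12. NE4 alone had 255 FPKM and the other NE tumors 167 to 194 FPKM, and without NE4 the log2 fold change was -0.06. Endog, a mitochondrial nuclease, had the widest difference of the list at -0.40 with a standard error of 0.28. Endog stood at 1.64 FPKM in NE4 and at 0.654 to 1.06 FPKM in the other NE tumors, and without NE4 its log2 fold change was -0.12. Without NE4, 1 of 8 genes of the list, Aifm1, stood at an unadjusted p of at most 0.05. Aifm1 encodes the apoptosis-inducing factor and is named after its value was seen. Its log2 fold change without NE4 was -0.14 with a standard error of 0.063. In that fit 0 of all genes reached the FDR threshold. The share of all genes at the unadjusted threshold without NE4 is not given here, so that 1 of 8 cannot be weighed against it. The part of muscle tissue in these values was not tested.

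The list of binding partners and turnover factors held the 1 gene below the unadjusted threshold, Dynll1. It encodes a dynein light chain, the class of proteins that tether BIM and BMF to the cytoskeleton. Dynll1 measured 44.5, 42.1, 32.6, 39.7 and 34.1 FPKM in E and 45.4, 41.4, 45.8, 44.6 and 39.9 FPKM in NE. E3 and E5 were the lowest tumors, and the groups overlapped. The log2 fold change was -0.20 with a standard error of 0.088 and failed the correction (edgeR FDR 0.897), and without NE4 it was -0.18 and no longer below the unadjusted threshold. Its relative Dynll2, the light chain known to bind BMF, had 48.9 ± 5.57 FPKM in E and 52.45 ± 10.03 FPKM in NE, with a log2 fold change of -0.14 and a standard error of 0.13. Dynll2 was at 69.0 FPKM in NE4 and at 45.1 to 54.8 FPKM in the other NE tumors, and without NE4 its log2 fold change was 0.0009.

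In the same list, 0 of 15 genes were higher in E at the unadjusted threshold and the median was -0.03. Ywhae, a 14-3-3 protein, was the highest at 363 ± 6.60 FPKM in E and 366 ± 14.7 FPKM in NE. Sfn, the epithelial 14-3-3 protein, had the widest log2 fold change at -1.001 with a standard error of 0.48. Its level was 1.05 to 1.71 FPKM in E and 1.23 to 1.81 FPKM in NE1 to NE4, whereas NE5 had 7.45 FPKM, and without NE5 the log2 fold change was -0.20. NE5 also had the highest sum of the keratinocyte markers, 58.7 CPM, where the E tumors had 0.681 to 2.16 CPM.

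Of the 18 transcription factors and kinases upstream, 0 passed, with 9 log2 fold changes above and 9 below 0 and a median of 0.003. Trp53, the tumor suppressor that induces Pmaip1, Bbc3 and Bax, had 36.8 ± 0.609 FPKM in E and 34.8 ± 4.74 FPKM in NE, and its log2 fold change of 0.05 was -0.006 without NE4. Foxo3, which induces Bcl2l11, had 15.4 ± 0.963 FPKM in E and 15.1 ± 1.74 FPKM in NE, and its log2 fold change of 0.008 was -0.04 without NE4. Atf4, a factor of the stress response, was the highest at 131 ± 21.8 FPKM in E and 146 ± 12.9 FPKM in NE, and its partner Ddit3 had a log2 fold change of -0.195 with a standard error of 0.11.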

How the data were processed

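RNA of 10 4T1 tumors (5 E and 5 NE, grouped by their labels) was sequenced by the authors on paired-end TruSeq libraries, aligned with Hisat2 and quantified with Stringtie. The authors deposited a table of read counts (whole numbers) and FPKM per gene and tumor. How the counts were obtained, the use of strand and the build of the table are not given in the sources used here, and the methods name a rat assembly (Rnor 6.0) while the identifiers are mouse. The deposited FPKM equal count over length over total count (largest relative deviation 3.79e-14).

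The members and gene lists were chosen with earlier results of these data known. From the counts, edgeR 4.0.16 in R 4.3.3 (TMM, filterByExpr, quasi-likelihood test, Benjamini-Hochberg over 13517 genes) gave log2 fold changes, with E minus NE positive. TMM factors ranged from 0.951 to 1.02. Approximate standard errors came from the fold change and its F statistic. The code was tested on simulated data. Alternatives were DESeq2 1.42.0, limma 3.58.1 (voom, and limma-trend on log2(FPKM + 1) and log2(FPKM + 0.1)), no TMM, other filters, covariates, a replicate block and leaving out each tumor. The fit without NE4 and E5 together and Spearman's rho were added after seeing the data. Depth was compared with scipy 1.17.1 in Python 3.11.15. p-values measure the spread between mice of 1 experiment. Intervals cover 95%, and the floor of 3 counts covers counting error only. PCR copies were not told apart.

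Named genes were the 10 members, the near relatives Bbc3, Bcl2l2, Bok, Bik, Hrk and the Bcl2a1 genes, and Dynll1, Dynll2, Apaf1, Casp9, Xiap, Foxo3 and Trp53, and 1 gene of the rule is not reported here. In each list, the genes at an unadjusted p of at most 0.05, the most abundant gene and the one with the widest fold change were added, as was the gene most alike each member. Transcript overlap was read from GENCODE (GRCm38) by identifier, and Ddit3, listed under more than 1 identifier, was read from the one with the most counts.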

Additional observations from a re-analysis of the deposited data

Results flagged for a closer look

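The values per tumor of the members, their sums and the marker lists were searched in 72 groups of 5 for a tumor far from the rest (a gap of over 0.710 of the group's range). In 8 groups a tumor was that far. Chance gives about 1 in 20 groups, or 3.6 here, only for normally distributed values in separate groups. The marker sums were skewed and several groups shared genes, so 8 cannot be weighed against 3.6. Among the member values, the ratio of Bax to Bcl2 was 2.41 in NE4, with the nearest NE tumor at 1.65. The other 7 were summed markers of other cell types. Skeletal muscle stood at 27988 CPM in NE4 (nearest 1628) and at 3923 CPM in E2 (nearest 1257), and adipocyte markers at 119 CPM in NE4 (nearest 27.2). In E5, fibroblast markers were at 16132 CPM (nearest 5395) and endothelial markers at 219 CPM (nearest 145). In NE5, epithelial markers were at 131 CPM (nearest 31.8) and keratinocyte markers at 58.7 CPM (nearest 1.24). E5 is the tumor with the highest Bmf (5.74 FPKM) and NE4 the one with the lowest (1.75 FPKM). Without both, a fit chosen after seeing the data, the log2 fold change of Bmf was 0.58 and that of Bcl2l11 0.09. The cause of these values was not tested.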

How the results depend on the processing

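0 members were called under every alternative with an adjusted p, and 2 at an unadjusted p of at most 0.05 (Bmf and Bcl2l11), where 657 genes passed. DESeq2 called 3 genes, and the other alternatives called 0. At the unadjusted threshold stood 1 member with no filter, with the total count as a covariate and without NE4 and E5, and leaving out single tumors gave 1 to 2. The log2 fold change of Bmf ranged from 0.44 with the total count as a covariate to 0.92 without E1. It was 0.58 without NE4 and E5, 0.60 with limma-voom and 0.65 without E5. As Bmf was chosen by its difference in these same tumors, its sign in these fits is no test of it. The paper describes 5 matched pairs, while the labels do not say which tumors were matched, and the main fit used no pairing. Deviations of same-numbered tumors had an r of -0.325 to 0.316, which cannot show whether they were paired. With the replicate block 0 genes and 0 members were called, with 0.77 for Bmf. Several members near 0 changed sign. With limma-voom, Bcl2 was at -0.026, Bid at 0.0097 and Pmaip1 at -0.14. With limma-trend (FPKM + 1 and FPKM + 0.1), Mcl1 was at 0.0030 and 0.0030, Bak1 at 0.0144 and 0.0147 and Bid at 0.0117 and 0.0123. Without TMM, Mcl1 was at 0.0027, Bak1 at 0.0177 and Bid at 0.0077. With the total count as a covariate, Bid was at 0.031 and Pmaip1 at -0.059. Bad was at -0.018 without NE4 and E5. Leaving out single tumors gave -0.024 to 0.11 for Bcl2, -0.056 to 0.0030 for Mcl1, -0.033 to 0.079 for Bax, -0.046 to 0.029 for Bak1, -0.059 to 0.037 for Bid and -0.19 to 0.16 for Pmaip1. The cause of these changes was not tested. The r of the most similar gene without NE4 was 0.974 for Bcl2, 0.914 for Bcl2l1, 0.893 for Mcl1, 0.923 for Bak1, 0.880 for Bcl2l11, 0.962 for Bid and 0.917 for Bad. Spearman's rho with the gene named for each was 0.721 for Bcl2l1, 0.855 for Mcl1, 0.927 for Bak1, 0.927 for Bcl2l11, 0.976 for Bmf, 0.891 for Bid and 0.867 for Pmaip1. By rho the named gene ranked first for only 3 of the 10 members. It ranked 223 for Bcl2l1, 43 for Pmaip1, 35 for Bid and 23 for Mcl1, so that the most similar gene depends on the measure. Depth limits Bad (59 to 100 reads) and Pmaip1 (67 to 236 reads) most.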
